A study of Danio rerio with 6 samples.

Results

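The genes described here are the Notch receptors, their Delta and Jagged ligands and the hairy-related transcription factors of the her, hes and hey families. They were taken from the deposited count table by a pattern on the gene symbol (her or hes followed by a digit, hey1, hey2 and heyl, notch1 to notch3, dla to dld, dll4 and the jag1 and jag2 genes). The pattern reads the symbol alone, while the family was chosen with earlier results of these data known. The pattern found 38 of the 32520 genes, of which 13 encode receptors or ligands and 25 encode hairy-related factors. Of the 38, 33 passed the filter on low counts and were tested, and 26 of those averaged at least 10 CPM (read counts divided by the normalised library size and put on a common scale) in a group. A pair of rows carry the symbol her4.2 in the table, and the one with the identifier ENSDARG00000056729 is called her4.5 here, as in the RefSeq and Ensembl name tables.

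Notch signalling passes between touching cells. A Delta or Jagged ligand on the surface of a cell binds a Notch receptor on its neighbour, the receptor is cut, and its inner part enters the nucleus, where it joins the Rbpj protein and switches on target genes. Many of those targets are hairy-related repressors, which in turn hold back differentiation genes. In the fish trunk the pathway is known for the segmentation clock of the forming somites, for keeping neural progenitors undifferentiated, for arterial identity in the vessels and for choices of fate among skin and muscle cells.

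RNA was measured in 6 libraries of cells sorted from the trunks of wildtype zebrafish at 24 hours post fertilization, each group holding 2 libraries. Slow muscle (replicates 1 and 2) was sorted by tgPAC(prdm1a:eGFP), a reporter of slow-twitch fibres and muscle pioneers. Cyclopamine neural crest (replicates 3 and 4) and untreated neural crest (replicates 1 and 2) were sorted by tg(sox10:mRFP), a reporter of neural crest. The series' design text describes embryos carrying both transgenes. Replicate numbers are the sample numbers of the labels, so slow muscle and untreated neural crest share sample numbers 1 and 2. Cyclopamine blocks Smoothened, the membrane protein that passes on Hedgehog signals, and was given at 100 µM from 50% epiboly to 24 hours; no vehicle is named for the untreated embryos.

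Total counts lay between 15355583 and 26441238 per library, and where 0 reads were counted, counting error alone leaves room for as many as 3 counts (0.127 to 0.177 CPM). Among values over 10 counts, the most common count was 33 to 97 depending on the library (1.61 to 4.56 CPM). A gene at a few CPM may therefore rest on few original molecules, which was not tested. Summed over 12 neural crest genes the level was 246 and 258 CPM in slow muscle, 6782 and 8514 CPM in cyclopamine neural crest and 7089 and 6803 CPM in untreated neural crest. Slow muscle genes (11 rows) summed to 69040.1 and 31394 CPM, 124 and 229.6 CPM, and 211 and 214 CPM in the same groups. The slow muscle libraries also held 2271 and 2463 CPM of 14 endothelial genes, against 361 and 327 CPM in untreated neural crest, and 7338 and 10309 CPM of 12 epidermal genes, against 724 and 518 CPM. Whether replicates were drawn from separate pools of embryos is not stated in the labels, and each p-value therefore reflects just the spread among these libraries, which may be technical. In sorted bulk RNA a smaller number of expressing cells and less RNA per cell cannot be told apart. Values below are in replicate order within each group, and since gene lengths are not in the files, levels are not compared between genes.

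**Figure D1:**
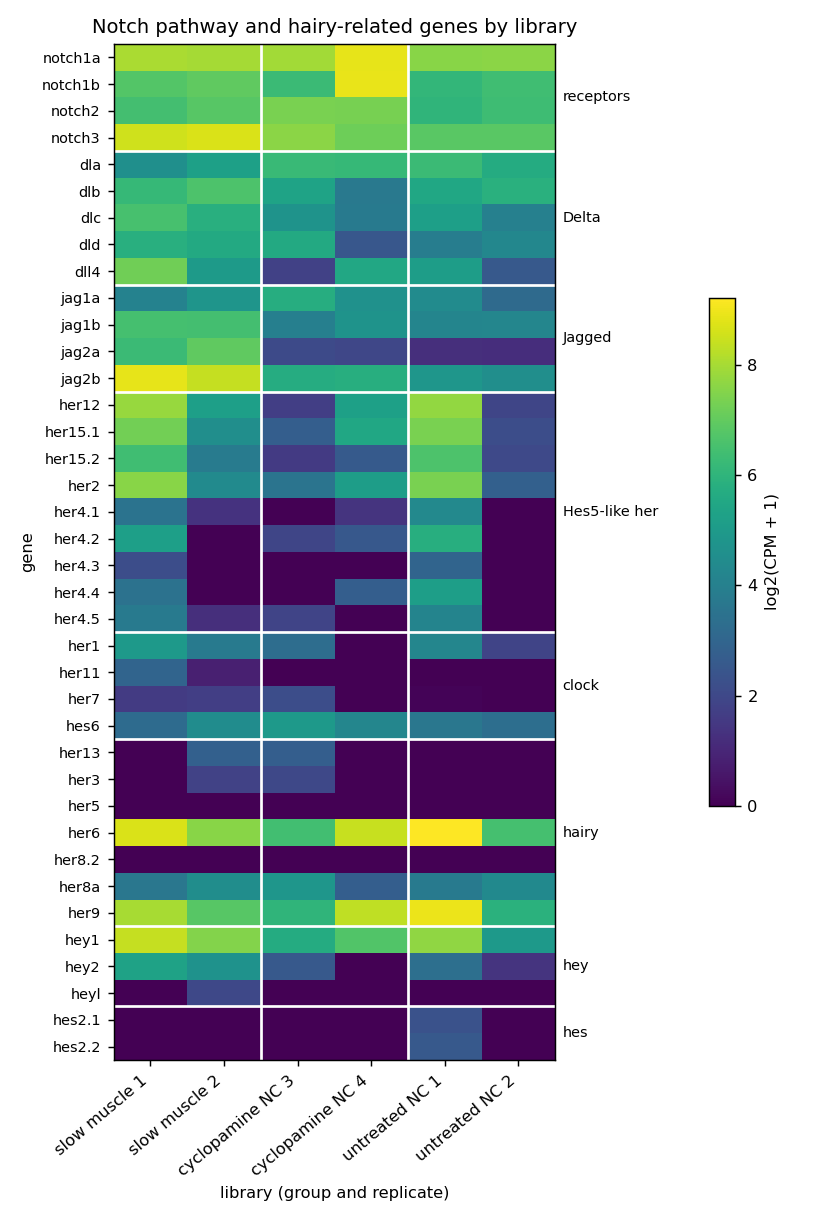
Level of each of the 38 genes (rows, grouped by role) in each of the 6 libraries (columns; NC is neural crest), as log2(CPM + 1) in colour. jag2a and jag2b are bright in both slow muscle libraries. The Hes5-like genes her12, her2, her15.1 and her15.2 are bright in replicate 1 of slow muscle and of untreated neural crest. They are dark in replicate 2 of untreated neural crest.

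Slow muscle was set against untreated neural crest to describe how the pathway's genes are distributed between both sorted populations. Both jag2 genes and the receptor gene notch3 were higher in slow muscle, and no gene of the family was called lower. In edgeR's quasi-likelihood test 3 of the 33 genes tested were called higher at an adjusted p under 0.05, beside 1.67% of all 17701 genes tested, and 0 were called lower, beside 0.876%. By DESeq2, 4 of 32 with an adjusted p were called higher, beside 11.5% of all genes, and 0 were called lower, beside 5.55%. At an unadjusted edgeR p under 0.05, 4 of 33 were higher, beside 11.5% of all genes, and 1, the Delta gene dla, was lower, beside 7.67%.

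Both jag2 genes were among those called. jag2b (ENSDARG00000021389), which encodes a Jagged ligand, stood at 464 and 340.0 CPM in slow muscle, 50.9 and 53.2 CPM in cyclopamine neural crest and 27.4 and 22.2 CPM in untreated neural crest. Its log2 fold change in slow muscle was 4.02 ± 0.35 (SE; edgeR adjusted p = 0.0132). Every slow muscle library lay above every neural crest library. Its paralogue jag2a (ENSDARG00000014246) stood at 75.8 and 125 CPM in slow muscle, 3.22 and 2.86 CPM in cyclopamine neural crest and 1.37 and 1.30 CPM in untreated neural crest. The neural crest values of jag2a rest on 22 to 71 counts per library, where the most common count was 33 to 97. Its log2 fold change in slow muscle was 6.23 ± 0.54 (edgeR adjusted p = 0.0132). Again the groups did not overlap. jag1b (ENSDARG00000013168), a Jagged gene known in zebrafish for patterning the jaw and face, stood at 89.8 and 86.3 CPM in slow muscle, 14.7 and 25.3 CPM in cyclopamine neural crest and 17.1 and 17.6 CPM in untreated neural crest. Its log2 fold change was 2.35 ± 0.43 and missed the threshold in edgeR (adjusted p = 0.0547), while DESeq2 called it (adjusted p = 0.000193). jag1a did not follow, at 16.1 and 26.9 CPM in slow muscle, 51.9 and 24.0 CPM in cyclopamine neural crest and 21.0 and 8.05 CPM in untreated neural crest (edgeR adjusted p = 0.748 for slow muscle). The slow muscle and untreated values of jag1a overlapped. The median log2 fold change of the 4 Jagged genes was 3.18, beside 0.08 over all genes tested.

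Among the receptors, notch3 (ENSDARG00000052139), in zebrafish a receptor of neural progenitors and of the cells that wrap vessels, stood at 376 and 416 CPM in slow muscle, 196 and 145 CPM in cyclopamine neural crest and 114 and 116 CPM in untreated neural crest. Its log2 fold change in slow muscle was 1.78 ± 0.30 (edgeR adjusted p = 0.0451). The other receptor genes differed less. notch1a (ENSDARG00000103554), the receptor gene needed for regular somite borders, stood at 262 and 251 CPM in slow muscle against 189 and 196 CPM in untreated neural crest (edgeR adjusted p = 0.612). Its paralogue notch1b stood at 107 and 125 CPM against 67.3 and 83.0 CPM (edgeR adjusted p = 0.754). notch2 stood at 87.7 and 111 CPM against 65.0 and 81.5 CPM (edgeR adjusted p = 0.465). For all 4 receptor genes both slow muscle libraries exceeded both untreated libraries, and over all genes tested 33.6% did so. The median log2 fold change of the receptors was 0.53.

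**Figure D2:**
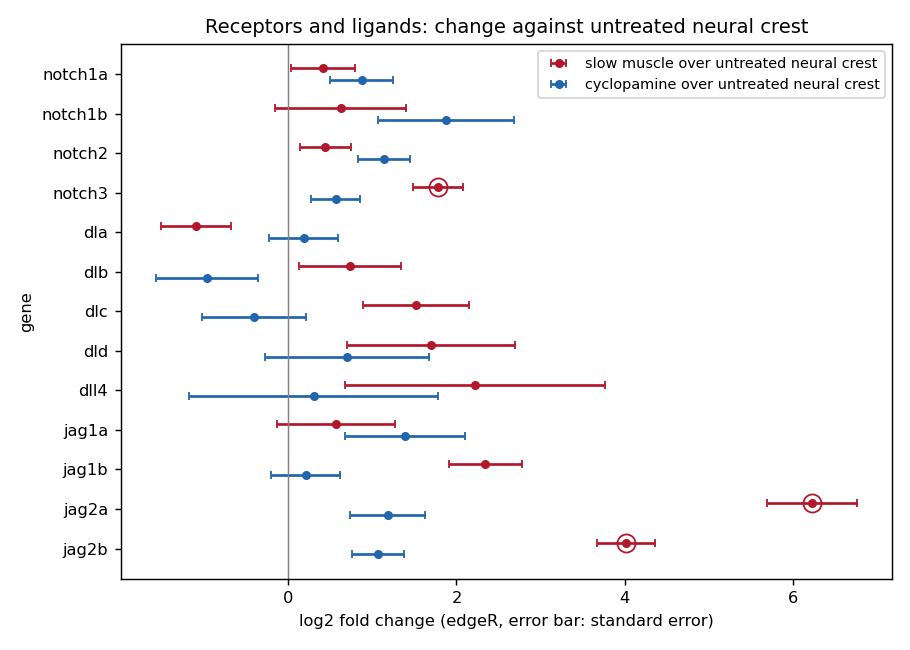
Log2 fold change (x axis) of each receptor and ligand gene (y axis) in slow muscle (red) and in cyclopamine neural crest (blue), each over untreated neural crest, with edgeR's estimate as a point and its standard error as a bar; a ring marks an adjusted p under 0.05. jag2a, jag2b and notch3 carry rings in slow muscle, and no gene carries a ring with cyclopamine.

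The Delta genes were detected in every library and none was called in slow muscle (edgeR adjusted p between 0.232 and 0.558). dla, the Delta gene of early neurons and their progenitors, was the single ligand whose slow muscle values both lay below the untreated ones, at 22.9 and 36.8 CPM against 77.5 and 50.2 CPM (by edgeR, log2 change -1.10 ± 0.42 and adjusted p = 0.232). Over all genes tested 27.3% lay below without overlap. dlb, also a Delta gene of the nervous system, stood at 70.7 and 98.5 CPM against 44.4 and 57.3 CPM. The clock ligand gene dlc stood at 92.5 and 54.5 CPM against 36.1 and 15.203 CPM (edgeR adjusted p = 0.268). dld, which with dlc keeps the oscillations of neighbouring cells in step in the presomitic mesoderm, stood at 55.6 and 47.4 CPM against 13.8 and 18.0 CPM (by edgeR, log2 change 1.69 ± 0.999 and adjusted p = 0.402). For dlb, dlc and dld the groups did not overlap, with slow muscle higher. In the whole family this held for 13 of the 33 genes tested, against the background of 33.6%. Presomitic mesoderm genes (12 rows) summed to 168 and 203 CPM in slow muscle against 20.7 and 25.4 CPM in untreated neural crest, and their part in the dlc and dld values was not tested. dll4, the Delta ligand of arterial endothelium, stood at 149 and 31.7 CPM against 33.6 and 4.97 CPM (edgeR adjusted p = 0.468), and its groups overlapped.

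The calls in slow muscle depended on which libraries entered the fit, while the fitted changes of jag2a, jag2b, jag1b and notch3 moved little. Other genes moved more, with log2 changes from 0.68 to 4.16 for dll4 and -1.61 to 5.46 for her12 with a library left out. Without untreated replicate 1 or untreated replicate 2 no gene of the family was called (adjusted p between 0.0514 and 0.0718 for jag2a and jag2b, and 0.302 and 0.309 for notch3), without slow muscle replicate 1 or slow muscle replicate 2 notch3 was lost (0.117 and 0.143), and without cyclopamine replicate 3 or cyclopamine replicate 4 jag1b and dld were called as well, 5 genes in all. Over all genes the calls in slow muscle, 451 with all libraries, were 2933 without cyclopamine replicate 3, 3013 without cyclopamine replicate 4, and 108 without either of the untreated replicates in turn. The part of the endothelial and epidermal transcripts of the slow muscle libraries in the values of jag2a, jag2b, jag1b and notch3 was not tested.

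The hairy-related genes gave no call between the groups. Of 20 tested, none was called in slow muscle, with edgeR adjusted p between 0.295 and 0.998, and the lowest DESeq2 adjusted p was 0.177. Several of them differed widely between libraries of the same group. The 9 genes of the type of mammalian Hes5 (her12, her2, her15.1, her15.2 and the 5 her4 copies) are classical Notch targets of neural progenitors. At least her12 among them is also expressed in the presomitic mesoderm. Together the 9 genes summed to 717 and 94.6 CPM in slow muscle and 26.04 and 132 CPM in cyclopamine neural crest. In untreated neural crest the sum was 767 and 15.6 CPM.

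her12 (ENSDARG00000032963) stood at 218 and 35.9 CPM in slow muscle, 2.31 and 37.1 CPM in cyclopamine neural crest and 211 and 2.84 CPM in untreated neural crest. her2 (ENSDARG00000038205) stood at 192 and 20.1 CPM, 10.6 and 33.9 CPM, and 163 and 6.09 CPM in the same groups. Replicate 1 was the high library in slow muscle as well as in untreated neural crest, and the slow muscle and untreated values interleave. her15.1 (ENSDARG00000054562) stood at 152 and 22.5 CPM in slow muscle, 5.66 and 43.8 CPM in cyclopamine neural crest and 162 and 3.55 CPM in untreated neural crest. Its tandem copy her15.2 (ENSDARG00000054560) stood at 83.0 and 13.2 CPM, 1.95 and 5.07 CPM, and 99.3 and 3.14 CPM. Within slow muscle, replicate 1 exceeded replicate 2 by 6.07-fold for her12, 9.55-fold for her2, 6.75-fold for her15.1 and 6.27-fold for her15.2. Within untreated neural crest the same ratios were 74.5 for her12, 26.7 for her2, 45.6 for her15.1 and 31.7 for her15.2. The low untreated library held 48 to 103 counts of these 4 genes, where the most common count was 39. Each ratio also has a single library on either side, so its size is poorly determined.

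The 5 her4 copies followed the same order. her4.2 (ENSDARG00000094426) stood at 35.7 and 0 CPM in slow muscle, 2.81 and 4.79 CPM in cyclopamine neural crest and 53.8 and 0 CPM in untreated neural crest. her4.4 (ENSDARG00000009822) stood at 10.1 and 0 CPM, 0 and 5.73 CPM, and 35.2 and 0 CPM. The copies her4.1, her4.3 and her4.5 stood between 3.48 and 19.3 CPM in replicate 1 of slow muscle as well as of untreated neural crest, and at most at 1.52 CPM in replicate 2 of either. How reads that map to several places were treated is not stated, and reads of these near-identical copies may have been split or lost. Summing removes the effect of splitting among the copies but not of loss, so the summed level may still be too low. Summed over the 5 copies it was 72.7 and 2.87 CPM in slow muscle, 5.48 and 12.2 CPM in cyclopamine neural crest and 132 and 0 CPM in untreated neural crest. In the RefSeq annotation of the GRCz12tu assembly her12 and the her4 copies follow one another without another gene between them, and so do her2, her15.1 and her15.2, so these 9 genes form 2 clusters.

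**Figure D3:**
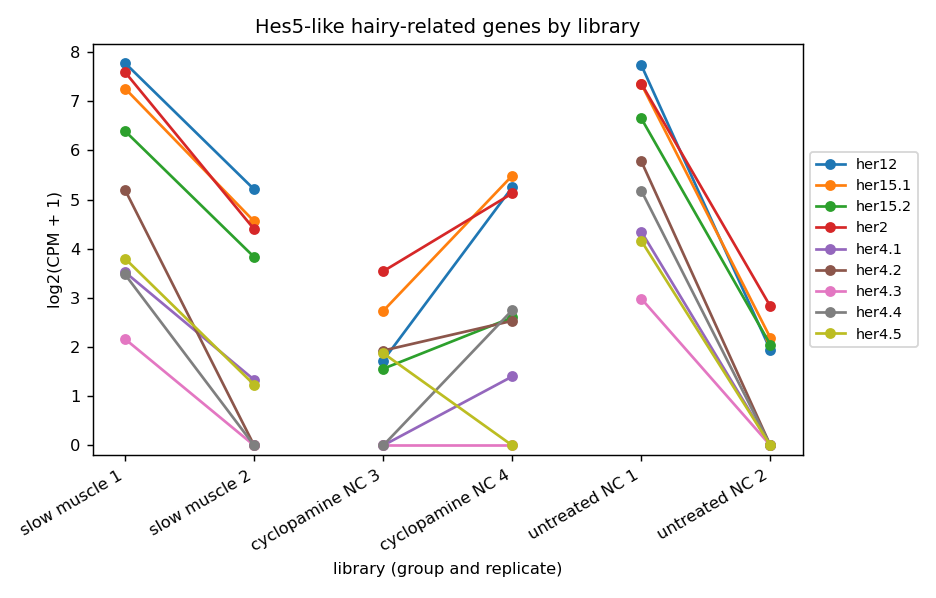
Level of the 9 Hes5-like genes in each library, as log2(CPM + 1) on the y axis; a line joins the 2 libraries of a group for each gene and marks no order in time. All 9 genes are higher in replicate 1 than in replicate 2 in slow muscle as well as in untreated neural crest. In cyclopamine neural crest her12, her2, her15.1, her15.2, her4.1, her4.2 and her4.4 are higher in replicate 4 than in replicate 3. There her4.5 is higher in replicate 3, and her4.3 is at 0 in both replicates.

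A 4-fold difference, chosen after these values were seen, was used to set the pattern beside all other genes. With values under 3 counts raised to 3, replicate 1 exceeded replicate 2 by at least 4-fold in slow muscle for 6.59% of the 17701 genes, in untreated neural crest for 10.1%, and in both sorts for 1.42%. Of the 33 genes tested here, 10 did so in both sorts, all 9 Hes5-like genes and dll4, and 0 showed the opposite, beside 1.99% of all genes. With values raised instead to each library's peak count, 17 of all genes tested did so in both sorts. Of these 17, 9 belong to the family (her12, her2, her15.1, her15.2, her4.1, her4.2, her4.4, her4.5 and dll4). Over all genes the differences between replicates 1 and 2 in the 2 sorts were barely related (Pearson's r = 0.0148 and Spearman's rho = 0.00883 across 17701 genes, which are not independent and share the libraries). The labels do not say that a replicate number marks a shared batch, day or pool of embryos, and the comparison of replicates has a single library on each side in each sort, so no test was made.

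**Figure D4:**
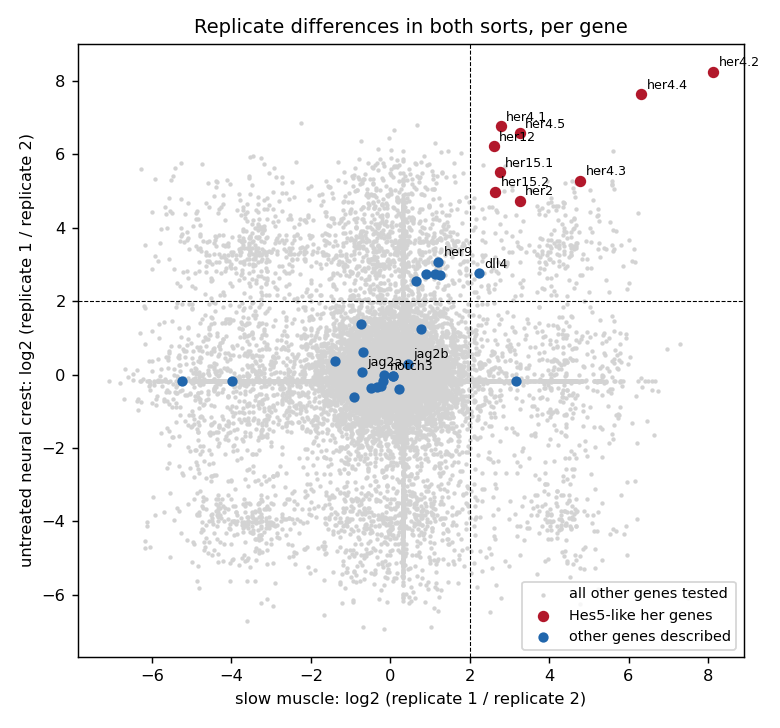
Log2 ratio of replicate 1 to replicate 2 in slow muscle (x axis) and in untreated neural crest (y axis) for each of the 17701 genes tested, with values under 3 counts raised to 3; dashed lines mark a 4-fold difference. The 9 Hes5-like genes (red) and dll4 lie beyond both lines, and jag2a, jag2b and notch3 lie near the centre.

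Other hairy and hey genes leaned the same way by smaller ratios. her6 (ENSDARG00000006514), a zebrafish counterpart of mammalian Hes1, stood at 416 and 190.3 CPM in slow muscle, 84.4 and 349 CPM in cyclopamine neural crest and 592 and 89.3 CPM in untreated neural crest. her9 (ENSDARG00000056438), a relative of her6, stood at 259 and 113 CPM, 64.8 and 317 CPM, and 487 and 58.0 CPM. hey1 (ENSDARG00000070538), a Notch target with a hairy-related domain, stood at 337 and 181 CPM, 50.0 and 103 CPM, and 202 and 30.2 CPM. For her6, her9 and hey1 replicate 1 was 1.86-fold to 2.30-fold above replicate 2 in slow muscle and 6.64-fold to 8.40-fold above it in untreated neural crest. The arterial factor hey2, known as gridlock in zebrafish, stood at 38.6 and 24.8 CPM in slow muscle, 4.89 and 0 CPM in cyclopamine neural crest and 9.38 and 1.60 CPM in untreated neural crest (edgeR adjusted p = 0.548 for slow muscle). Both slow muscle libraries exceeded the neural crest libraries for hey2.

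Of the clock genes other than her12, her1 and hes6 averaged at least 10 CPM in a group, and her7 and her11 did not. her1, whose product turns off its own gene in each cycle of the segmentation clock, stood at 30.7 and 12.9 CPM in slow muscle, 8.88 and 0 CPM in cyclopamine neural crest and 17.6 and 2.66 CPM in untreated neural crest. Its neighbour and clock partner her7 stayed at or below 3.53 CPM in every library. hes6, whose product pairs with those of her1 and her7, stood at 8.23 and 21.4 CPM, 29.9 and 17.8 CPM, and 11.5 and 8.93 CPM, with the higher slow muscle value in replicate 2. her8a, a hairy-related gene of the nervous system, also had its higher slow muscle value in replicate 2, at 11.7 and 22.1 CPM. It stood at 27.8 and 5.82 CPM in cyclopamine neural crest. In untreated neural crest it stood at 12.9 and 19.9 CPM, where replicate 2 was again higher, unlike for hes6. So hes6 and her8a did not share the pattern of the Hes5-like genes. Among the 12 genes below the level set for full description the highest value in any library was 19.3 CPM, that of her4.1. her5 and her8.2 had 0 counts in all libraries, and hes2.1 and hes2.2, which are neighbours, were found in untreated replicate 1 alone, at 4.01 and 4.90 CPM. heyl was found in slow muscle replicate 2 alone, at 2.96 CPM, and her3 and her13 were found in that library and in cyclopamine replicate 3, at 2.49 to 6.04 CPM. her11, a clock gene, was found in slow muscle alone, at 6.86 and 0.760 CPM.

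Markers of other cell types were set beside the Hes5-like genes, library by library. Summed over 13 neural progenitor genes the level was 203 and 106 CPM in slow muscle, 284 and 122 CPM in cyclopamine neural crest and 163 and 153 CPM in untreated neural crest. Neuronal genes (12) summed to 106 and 173 CPM, 428 and 387 CPM, and 332 and 325 CPM. In untreated neural crest, where the Hes5-like sum was 767 and 15.6 CPM, both marker sums differed little between the libraries. In slow muscle the neural progenitor sum was higher in replicate 1. Among progenitor genes sox3 was uneven, at 49.3 and 21.1 CPM in slow muscle and 16.8 and 1.30 CPM in untreated neural crest. Its ratio of replicate 1 to replicate 2 was 12.9 in untreated neural crest. The other genes of that list had ratios of 0.105 to 2.63 there. The part of progenitor cells in the Hes5-like values was not tested. Presomitic mesoderm genes (12 rows) summed to 168 and 203 CPM in slow muscle and 100 and 215 CPM in cyclopamine neural crest. In untreated neural crest they summed to 20.7 and 25.4 CPM, and their part in the Hes5-like values was not tested either. The summed endothelial level was similar in the replicates of each sort, at 2271 and 2463 CPM in slow muscle and 361 and 327 CPM in untreated neural crest. In the same sorts dll4 differed 4.70-fold and 6.77-fold. Single endothelial genes were less even. In untreated neural crest flt1, lmo2, erg, pecam1 and tal1 were 3.32-fold to 18.7-fold higher in replicate 1 (0 counts raised to 3), all at or below 16.3 CPM, while the other 9 genes of the list had ratios of 0.719 to 1.59. In slow muscle the ratios of the 14 genes lay between 0.656 and 2.11. Their part in the dll4 values was not tested. Of the 73 tested genes on the neural crest, slow muscle, neural progenitor, neuron, endothelial and epidermal lists, 0 were at least 4-fold higher in replicate 1 in both sorts. Over all genes tested the share was 1.42%, so a count of 0 among 73 says little. The slow muscle sum differed between the slow muscle replicates, at 69040.1 and 31394 CPM, and its part in the Hes5-like values of those libraries was not tested. The direct feedback target nrarpa, looked at after its values were seen, stood at 464 and 189 CPM in slow muscle, 96.7 and 188 CPM in cyclopamine neural crest and 270.5 and 121 CPM in untreated neural crest, so replicate 1 was the higher library in the same sorts. Its paralogue nrarpb stood at 16.5 and 16.9 CPM, 21.8 and 8.08 CPM, and 30.8 and 3.79 CPM, with no such difference in slow muscle.

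**Figure D5:**
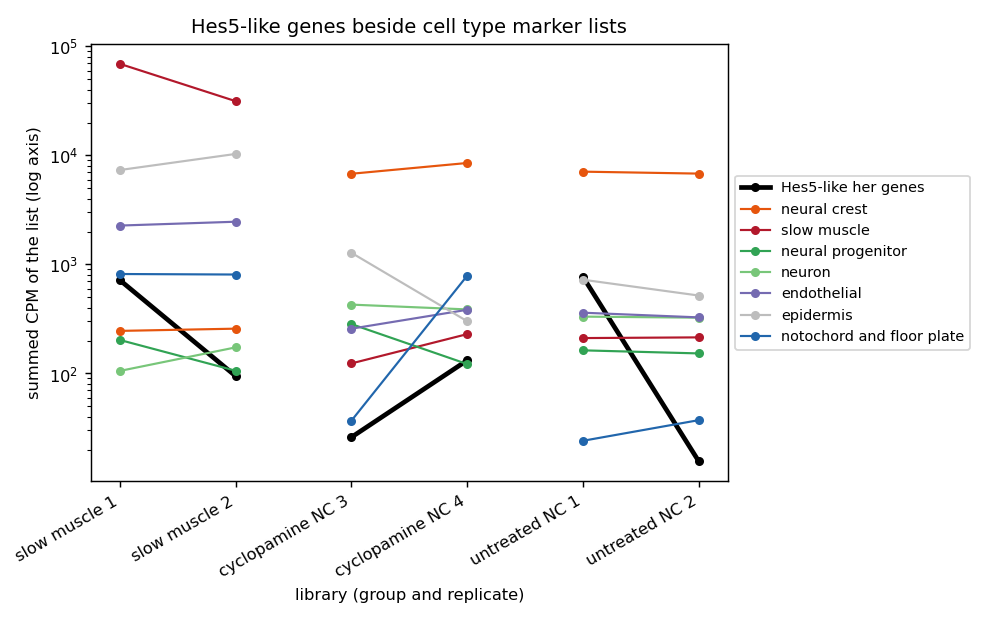
Summed CPM (y axis, log scale) of the 9 Hes5-like genes (black) and of 7 marker lists (colours) in each library; a line joins the 2 libraries of a group. In untreated neural crest the black line spans 767 to 15.6 CPM while the neural crest, neuronal, neural progenitor and endothelial sums stay nearly level, and in cyclopamine neural crest the notochord and floor plate sum is 37.0 CPM in replicate 3 and 789 CPM in replicate 4.

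Cyclopamine neural crest was set against untreated neural crest to describe which pathway genes differ between these sorts. The treated libraries are samples 3 and 4 of the labels and the untreated ones samples 1 and 2. An effect of the Hedgehog block therefore cannot be told apart from a difference between these sets of samples. No gene of the family was called, higher or lower, by edgeR (0 of 33 tested) or by DESeq2 (0 of 32 with an adjusted p), and edgeR called 0% of all genes tested. DESeq2 called 0.961% higher and 0.942% lower. At an unadjusted edgeR p under 0.05, 3 of the 33 were higher, beside 2.48% of all genes tested, and 0 lower, beside 1.85%. These 3 were notch2, jag2b and jag2a.

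notch2 (ENSDARG00000043130) stood at 165 and 158 CPM in cyclopamine neural crest against 65.0 and 81.5 CPM in untreated neural crest, with a log2 change of 1.14 ± 0.31 and an adjusted p of 0.835 by edgeR, and an adjusted p of 0.0966 by DESeq2. jag2b stood at 50.9 and 53.2 CPM against 27.4 and 22.2 CPM (by edgeR, log2 change 1.07 ± 0.31 and adjusted p = 0.835). jag2a stood at 3.22 and 2.86 CPM against 1.37 and 1.30 CPM, all on at most 71 counts. For these 3 genes both cyclopamine replicates were close to each other and above both untreated ones. They were picked by their unadjusted p in this same comparison, which favours such genes, so this adds no support. In total 7 of the 33 genes lay above the untreated libraries without overlap, beside 14.6% of all genes tested, namely notch1a, notch2, notch3, jag1a, jag2a, jag2b and hes6. dlb alone lay below without overlap, at 39.8 and 12.2 CPM against 44.4 and 57.3 CPM, beside 16.6% of all genes tested. The comparison shares its untreated libraries with that of slow muscle.

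Several genes of the family differed between the cyclopamine replicates themselves. notch1b (ENSDARG00000052094) stood at 75.8 CPM in replicate 3 and 476 CPM in replicate 4, against 67.3 and 83.0 CPM in untreated neural crest (by edgeR, log2 change 1.88 ± 0.80 and adjusted p = 0.835). notch1a stood at 242 CPM in replicate 3 and 464 CPM in replicate 4, against 189 and 196 CPM in untreated neural crest. Replicate 4 therefore set the notch1b mean and raised that of notch1a, for which replicate 3 also lay above both untreated libraries. It held at least 4-fold more than replicate 3 of notch1b, dll4, her12, her15.1, her4.1, her4.4, her6 and her9, or 8 of 33, beside 8.27% of all genes tested. Replicate 3 held at least 4-fold more of another 8 of 33, namely dld, her4.5, her1, her7, her13, her3, her8a and hey2. Over all genes tested the share was 24%, so this count is no trait of the family. In replicate 4 her4.5, her1, her7, her13, her3 and hey2 had 0 counts. That library had reads for 13249 genes and a most common count of 97, against 16278 genes and 40 in replicate 3. A fit without replicate 3 rests on those 0 counts for her1 and hey2. dld stood at 47.0 CPM in replicate 3 and 4.65 CPM in replicate 4, and dll4 at 2.45 and 45.2 CPM. Notochord and floor plate genes (9) summed to 37.0 CPM in replicate 3 and 789 CPM in replicate 4, against 24.1 and 37.3 CPM in untreated neural crest, and 6 of 14 endothelial genes were at least 4-fold higher in replicate 4 than in replicate 3. Their part in the notch1a, notch1b and dll4 values was not tested. Without replicate 3, which leaves replicate 4 as the lone treated library, 5 genes were called, notch1a and notch1b higher and dlb, her1 and hey2 lower, beside 1366 calls over all genes. Without replicate 4, 0 of the family and 17 of all genes were called.

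For the Hes5-like genes the direction with cyclopamine rested on untreated replicate 1. Their fitted log2 fold changes in cyclopamine neural crest had a median of -2.65, and none was called. Both cyclopamine libraries lay below untreated replicate 1 for all 9 genes, while for her12, her2 and her15.1 untreated replicate 2 was lower than or close to the lower cyclopamine library. her2, for example, stood at 10.6 and 33.9 CPM with cyclopamine against 163 and 6.09 CPM in untreated neural crest. Without untreated replicate 1 the fitted change of her2 was 1.86 in place of -1.92, and that of her12 was 2.79 in place of -2.44.

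The remaining machinery of the pathway was described from a list of 43 genes of ligand processing, receptor cleavage and nuclear partners, of which 40 were matched and 39 tested. By edgeR 1 was called higher in slow muscle, beside 1.67% of all genes tested, and 0 lower, beside 0.876%. With cyclopamine edgeR called 0 in either direction. DESeq2 called tle3a and numb higher in slow muscle (adjusted p = 7.74e-05 and 0.00754), beside 11.5% of all genes. It called maml2, psen2, tle3b and adam10b lower (adjusted p = 0.00112, 0.00209, 4.5e-05 and 0.0417), beside 5.55%. With cyclopamine DESeq2 called mfng lower (adjusted p = 0.00368), at 0.136 and 0 CPM against 6.27 and 6.27 CPM, beside 0.942%. The one called by edgeR was dlk2, a Delta-like membrane protein gene outside the canonical ligands. It stood at 79.8 and 31.7 CPM in slow muscle and 0 counts in every neural crest library (edgeR adjusted p = 0.0432, DESeq2 adjusted p = 0.0522). The list's median log2 fold change was -0.07 in slow muscle and 0.20 with cyclopamine, beside 0.08 and 0 over all genes tested. rbpja, which encodes the DNA-binding partner of the cleaved receptor, stood at 19.5 and 32.2 CPM in slow muscle, 48.2 and 24.2 CPM in cyclopamine neural crest and 41.6 and 30.2 CPM in untreated neural crest. The ligand-activating ubiquitin ligase gene mib1 stood at 105 and 112 CPM, 134 and 306 CPM, and 165 and 176 CPM. adam10a, which encodes a protease that cuts the receptor, stood at 223 and 256 CPM, 184 and 191 CPM, and 278 and 223 CPM. Neither test called rbpja, mib1 or adam10a, and other genes of the list differed more in slow muscle. tle3a stood at 131 and 145 CPM there against 43.2 and 27.6 CPM in untreated neural crest. tle3b went the other way, at 56.7 and 61.0 CPM against 171 and 184 CPM. Of the 39 tested genes of this list, 0 were at least 4-fold higher in replicate 1 in both sorts. Over all genes tested the share was 1.42%, so a count of 0 among 39 says little. Of 12 tested rows of proneural genes, which Notch targets repress, 0 were called in slow muscle or with cyclopamine. The median log2 fold change was 0.24 in slow muscle and 1.46 with cyclopamine. These medians include rows at 0 counts in both untreated libraries and are poorly determined. Summed over 16 proneural rows the level was 36.3 and 21.2 CPM in slow muscle, 66.2 and 41.5 CPM in cyclopamine neural crest and 87.4 and 67.4 CPM in untreated neural crest. The largest part of the untreated sums came from neurod1, at 57.4 and 38.1 CPM there. It stood at 5.33 and 0 CPM in slow muscle and 6.84 and 13.2 CPM in cyclopamine neural crest (edgeR adjusted p = 0.305 for slow muscle). Of the 12 tested rows 1 was at least 4-fold higher in replicate 1 in both sorts, beside 1.42% of all genes tested. It was olig2, a gene of the ventral neural tube, at 12.2 and 2.07 CPM in slow muscle and 4.16 and 0 CPM in untreated neural crest.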

How the data were processed

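The deposited table holds whole-number read counts per Ensembl gene for 6 libraries. The submitters' processing notes name STAR, featureCounts, Subread and DESeq2 and give no versions; genome build, annotation, strandedness and the treatment of multimapping reads are not stated there. The deposited log2 values were not used. Groups came from titles; those of untreated neural crest also say slow-twitch, while tissue and source name neural crest.

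Counts were fitted with edgeR 4.0.16 (quasi-likelihood, TMM, filterByExpr with a minimum count of 10 and a minimum total of 15) in R 4.3.3, all 6 libraries in 1 fit of 3 groups. Tests of 17701 genes were two-sided, with Benjamini-Hochberg adjustment over them and a threshold of 0.05. CPM are over TMM-scaled library sizes, and standard errors follow from the test statistic. Alternatives were DESeq2 1.42.0, other filters and scalings, smaller fits, each library left out and a replicate block. The test was also run on simulated data, with each gene's spread (dispersion) held at or below 0.05. In these libraries the common dispersion was 1.132, so that run says nothing of the test's power here. Genes were described in full when called or averaging at least 10 CPM in a group. The genes, lists and tests were chosen with earlier results of these data known. her12, on the clock and the Hes5-like lists, is described with the Hes5-like genes. Outside the family, dlk2 was named as called by edgeR, and tle3a, numb, maml2, psen2, tle3b, adam10b and mfng as called by DESeq2. The genes rbpja, mib1, adam10a, neurod1, olig2, nrarpa, nrarpb, sox3 and the 5 endothelial genes were named after their values were seen. No sequences were used here.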

Additional observations from a re-analysis of the deposited data

How the results depend on the processing

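The count of genes of the family called higher in slow muscle, 3 with all 6 libraries and TMM scaling, was 5 when only the 4 libraries compared entered, and 0 to 5 with a library left out. The count over all genes was 451, against 1408 with no filter on low counts, 2728 by DESeq2, 2368 with only the 4 libraries compared and 108 to 3013 with a library left out. With cyclopamine the family's counts were 0 to 2 higher and 0 to 3 lower with a library left out, and the count over all genes, 0, became 21 with no filter, 313 by DESeq2 and 0 to 1366 with a library left out. With the replicate number of slow muscle and untreated neural crest as a block, 242 genes were called and 2 of the family were higher, jag2a and jag2b, while notch3 had an adjusted p of 0.114. Slow muscle and untreated neural crest share sample numbers 1 and 2, and the labels do not say what a shared number marks. The block was not used for the values reported, so the notch3 call rests on libraries treated as unpaired. Deviations of same-numbered libraries correlated at 0.0148 across genes, and whether the libraries were paired was not tested further. A correlation over all genes cannot show whether a smaller set, such as the Hes5-like genes, shares a difference by replicate number. notch3 also missed under upper quartile scaling (0.0506), which moved the median of all genes in slow muscle to -0.16. The count of genes of the family at least 4-fold higher in replicate 1 in both sorts, 10, was 5 at a fold of 8 and 13 at a fold of 2. These alternatives were chosen after seeing the data. The shares of all genes at those folds are not given, so the counts there cannot be judged against a background.

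Among 26 genes the fitted direction in slow muscle reversed in 7 cases apart from libraries left out: her15.1 (-0.15) and her8a (-0.21) under upper quartile scaling, her15.2 under RLE scaling (0.0080), DESeq2 (0.0086) and the block (0.89), and her6 (0.29) and her9 (0.0246) under the block. With cyclopamine her8a was -0.0001 with only the 4 libraries compared. With a library left out, log2 changes in slow muscle ranged from -1.61 to 5.46 for her12, -1.91 to 4.598 for her15.1, -1.98 to 3.92 for her15.2, -2.10 to 4.097 for her2, -12.12 to 11.51 for her4.2, -11.51 to 9.69 for her4.4, -0.33 to 1.03 for hes6, -0.97 to 1.75 for her6, -0.51 to 0.39 for her8a and -1.39 to 1.67 for her9. With cyclopamine they ranged from -0.10 to 0.52 for dla, -0.98 to 0.33 for dlc, -1.77 to 1.56 for dld, -2.98 to 2.26 for dll4, -0.24 to 0.56 for jag1b, -5.53 to 2.79 for her12, -3.87 to 2.80 for her15.1, -4.82 to 0.16 for her15.2, -2.99 to 1.86 for her2, -3.82 to 9.29 for her4.2, -11.47 to 8.90 for her4.4, -10.66 to 0.70 for her1, -2.01 to 1.28 for her6, -1.48 to 0.76 for her8a, -2.07 to 1.72 for her9, -1.40 to 1.33 for hey1 and -9.78 to 0.58 for hey2. Values beyond about 9 come from groups at 0 counts and depend on the prior count. The causes were not tested. Across all alternatives the log2 change in slow muscle stayed between 5.80 and 6.50 for jag2a, 3.74 and 4.21 for jag2b and 1.53 and 1.87 for notch3. Counts near each library's peak count limit the her4 copies, jag2a in neural crest and the clock genes.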
